A study of Mus musculus with 8 samples.

Results

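The major urinary protein (Mup) genes Mup3, Mup4, Mup5, Mup6, Mup17, Mup18, Mup20 and Mup21 were followed in hepatocellular carcinomas (HCC) of miR-122 knockout mice. The genes, and the gene lists set beside them, were chosen with earlier results of these data known. Probes of the 8 genes were taken by name, as every experimental probe whose RefSeq accession belongs to 1 of them. This gave 10 probes of the 55681 on the array, with Mup4 and Mup20 measured by 2 probes each. The 8 genes are 8 of the 14311 genes tested. Of the 22 Mup genes in the RefSeq table, Mup2 and Mup19 also had a named probe, and the rest were not analysed here.

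The tumors were HCC of male miR-122 KO mice, and they were set against livers of age-matched male miR-122 floxed mice, both on a mixed C57BL/6J and 129S/Svj background. miR-122 is the most abundant microRNA of hepatocytes. A floxed gene carries loxP sites and is otherwise intact, and 1 label field calls the controls wild type. The labels give no age and do not name the Cre line or say in which cells miR-122 was deleted. The 8 Agilent 2-colour arrays of 1 slide each paired a Cy5-labelled tumor with Cy3-labelled control liver, with no dye swap, so a difference between dyes cannot be told apart from a difference between tissues. The labels do not say if control RNA was pooled over animals or if any tumors shared a mouse, so the p-values measure the spread between these arrays. Values of control livers are those of the 8 control channels, and n counts arrays, not control animals.

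Mup proteins are small secreted lipocalins, barrel-shaped carriers of hydrophobic ligands. In mice the liver releases them into blood, the kidney filters them, and they reach the urine with bound pheromones, where they serve as scent signals of identity, sex and status. Males make more of them than females, because the pulsed male pattern of growth hormone acts on hepatocytes through its receptor, the kinase Jak2 and the transcription factor Stat5b, and androgens, glucocorticoids and thyroid hormone add to transcription. The genes are near copies of each other in a single cluster on mouse chromosome 4. Mup20 encodes darcin, the male urinary protein that attracts females, and Mup4 and Mup5 are also known from nasal, lacrimal and salivary glands.

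In the RefSeq annotation the cluster runs from Mup4 and Mup6 at places 1 and 2 through Mup17 and Mup18 at places 16 and 17 to Mup5, Mup20, Mup3 and Mup21 at places 19 to 22 of 22 Mup genes. Promoter windows were available for 6 of the 8 genes. The 250 bases before the annotated start of Mup3, Mup21, Mup17 and Mup18 are shown because they hold pairs of near copies whose tumor over control ratios moved together across arrays, as described further on. They are from RefSeq, build GRCm38.p6, written 5′ to 3′ on the gene's strand, and capitals mark every match to the motifs searched.
Mup3 promoter, chr4:62087318-62087567, minus strand: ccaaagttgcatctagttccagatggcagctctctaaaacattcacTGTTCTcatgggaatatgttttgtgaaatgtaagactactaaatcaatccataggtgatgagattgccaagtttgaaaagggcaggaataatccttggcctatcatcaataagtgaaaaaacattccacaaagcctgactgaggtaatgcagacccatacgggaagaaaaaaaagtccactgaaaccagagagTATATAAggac
Mup21 promoter, chr4:62150842-62151091, minus strand: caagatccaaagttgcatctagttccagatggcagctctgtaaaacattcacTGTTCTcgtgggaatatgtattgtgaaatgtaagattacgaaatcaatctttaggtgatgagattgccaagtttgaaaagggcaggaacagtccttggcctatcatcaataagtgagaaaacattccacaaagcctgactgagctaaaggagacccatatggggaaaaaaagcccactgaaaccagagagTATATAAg
Mup17 promoter, chr4:61595833-61596082, minus strand: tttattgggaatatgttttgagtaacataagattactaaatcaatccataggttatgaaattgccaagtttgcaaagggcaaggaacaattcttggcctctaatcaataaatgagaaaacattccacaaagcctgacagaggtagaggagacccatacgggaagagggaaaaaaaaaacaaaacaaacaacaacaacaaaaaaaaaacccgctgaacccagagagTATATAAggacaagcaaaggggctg
Mup18 promoter, chr4:61674095-61674344, minus strand: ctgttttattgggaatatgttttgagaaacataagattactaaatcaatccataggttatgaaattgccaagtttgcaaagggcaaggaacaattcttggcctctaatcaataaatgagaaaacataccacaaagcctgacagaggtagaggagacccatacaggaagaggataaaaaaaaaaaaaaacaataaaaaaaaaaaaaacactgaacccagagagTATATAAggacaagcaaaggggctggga
Mup3 and Mup21 shared 93.4% of 244 aligned bases, and Mup17 and Mup18 shared 95.9% of 243. Across these pairs the identity was lower, from 85.4% for Mup18 with Mup21 to 87.6% for Mup3 with Mup17. Mup17 was closer still to the other Mup genes on the array, at 99.2% to Mup2 and 98.8% to Mup19. The motif TATATAA, a form of the TATA box, stood in 6 of 6 windows of the 8 genes, against 3.04% of the 32851 promoter windows searched on both strands, and it was chosen after the letters had been seen. TGTTCT, part of the site bound by the glucocorticoid receptor, stood in 2 of 6, those of Mup3 and Mup21, against 16.1% of all windows. Neither TTCNNNGAA, the Stat5 site, nor TGTTTAC, a Foxa site, was found in these 6 windows, against 7.02% and 3.17% of all windows. The motifs did not overlap each other in the sequences shown. The probes' own sequences were not used here, so the copies that each probe can bind were not tested, and a value under 1 gene's name can include signal of its near copies.

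All 8 Mup genes were lower in HCC than in control liver. A change counted as called when limma's adjusted p was below 0.05 and the ratio was 1 or more on the log2 scale in either direction (15.5% of all 14311 genes). By this rule 8 of 8 were lower, against 5.94% of all genes, and 0 were higher, against 9.54%. The 8 genes were chosen with earlier results of these data known, so the shares of all genes stand beside them as a description. The log2 ratio of tumor over control was below 0 on all 8 arrays for each of the 8, against 16.6% of all genes. The highest tumor level lay below the lowest control level for each of the 8 genes, against 8.47% of all genes. The median of the 8 mean log2 ratios was -4.88, beside a median of 0.03 over all genes tested. In bulk tissue, fewer cells of a type and less RNA per cell cannot be told apart. In the 4 arrays of row 1 of the slide the 8 means ran from -7.32 for Mup5 to -3.33 for Mup4, and in the 4 of row 2 from -5.98 to -3.15. Levels below are log2 channel signals after normalization; ratios are log2 of tumor over control, with SD over 8 arrays.

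**Figure D1:**
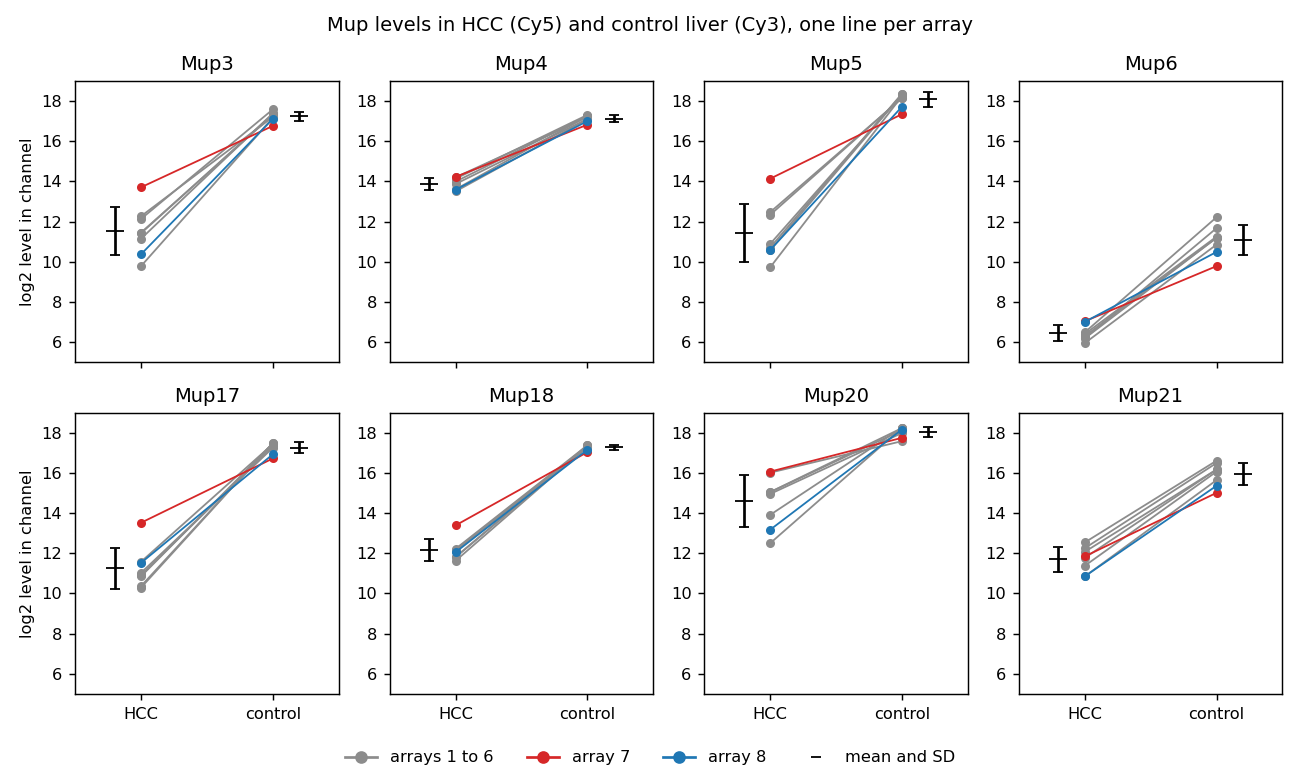
Log2 level of the brightest probe of each Mup gene in HCC (Cy5, left) and control liver (Cy3, right), 1 line per array, with the mean and SD over 8 arrays beside the points. The groups do not overlap for any of the 8 genes, and array 7 (red) holds the highest tumor level for 7 of them.

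Mup5, known in mice from liver and salivary glands, had the most negative ratio among the 8. Its level was 9.73 at lowest, 10.80 at the median and 14.14 at highest in tumors, against 17.35, 18.21 and 18.37 in control livers. The ratio ranged from -8.52 on array 3 to -3.21 on array 7 with a median of -7.28. The mean was -6.65 ± 1.69 (n = 8, 100.4-fold lower in HCC, adjusted p = 1.01e-05). Its ratio was the most negative of all tested genes with a value there (14309 to 14311) on arrays 1, 2, 3, 6 and 8, but was in rank 63 on array 7. No tumor reached the level of any control liver, and the tumor of array 7 stood highest.

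Mup20, the gene of darcin, was lower in HCC on both of its probes. The level on its brighter probe was 12.50, 15.00 and 16.06 (lowest, median and highest) in tumors, against 17.58, 18.14 and 18.25 in control livers. The ratio averaged -3.45 ± 1.49 (n = 8, 11.0-fold lower in HCC, adjusted p = 0.000207) and ran from -5.75 on array 3 to -1.57 on array 4. The other Mup20 probe gave 8.80, 12.67 and 14.69 in tumors, against 16.83, 17.42 and 17.55 in control livers. Its ratio was more negative on all 8 arrays, with a mean of -5.07 ± 2.04 (33.5-fold lower in HCC) and a difference between the probes of -1.61 ± 0.86. The probes ranked the arrays alike, with r = 0.93 over the 8 arrays between their ratios, which share both RNAs. The direction for Mup20 was thus the same on both probes and the size was not.

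Mup3, a liver gene of the cluster, had tumor levels of 9.79, 11.44 and 13.71, against 16.77, 17.26 and 17.59 in control livers. Its ratio averaged -5.70 ± 1.30 (n = 8, 51.9-fold lower in HCC, adjusted p = 6.02e-06), between -7.38 on array 3 and -3.05 on array 7. The groups did not overlap. The SD over arrays was 1.21 in the tumor channel and 0.24 in the control channel, which is a spread between livers only if the control RNA was not pooled.

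Mup21, the last gene of the cluster, had levels of 10.85, 11.81 and 12.54 in tumors, against 15.01, 16.12 and 16.61 in control livers. The ratio averaged -4.25 ± 0.51 (n = 8, 18.98-fold lower in HCC, adjusted p = 2.06e-07), from -4.80 on array 3 to -3.17 on array 7. For this gene the SDs over arrays were 0.62 in the tumor channel and 0.56 in the control channel.

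Mup17 came next to Mup5 in size. Its level was 10.29, 10.96 and 13.52 in tumors, against 16.72, 17.39 and 17.49 in control livers. The ratio averaged -6.01 ± 1.28 (n = 8, 64.4-fold lower in HCC, adjusted p = 4.21e-06), from -7.20 on array 6 to -3.20 on array 7. Mup18, its neighbour in the cluster, had 11.63, 12.09 and 13.39 in tumors, against 17.03, 17.31 and 17.38 in control livers. Its ratio averaged -5.12 ± 0.64 (n = 8, 34.8-fold lower in HCC, adjusted p = 2.11e-07), from -5.70 on array 5 to -3.65 on array 7. Neither gene's groups overlapped, and the tumor of array 7 was highest for both. For Mup18 the SD over arrays was 0.54 in the tumor channel and 0.12 in the control channel.

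Mup4, the first gene of the cluster, had the smallest change of the 8 on its brighter probe. Levels were 13.51, 13.93 and 14.23 in tumors, against 16.83, 17.16 and 17.31 in control livers. The ratio averaged -3.24 ± 0.34 (n = 8, 9.45-fold lower in HCC, adjusted p = 1.49e-07), from -3.64 on array 1 to -2.60 on array 7. The other Mup4 probe was dim, well above background in 6 of 8 tumors and in all 8 controls, and gave 6.42, 6.48 and 6.91 in tumors, against 7.04, 8.13 and 9.03 in control livers. Its ratio averaged -1.43 ± 0.54 (2.69-fold lower in HCC), less negative than that of the brighter probe on all 8 arrays, by 1.81 ± 0.59. Tumors and controls did not overlap on either probe. The gap between the lowest control and the highest tumor was only 0.12 on the dim probe. Control medians of the 2 probes were 17.16 and 8.13, and which of them better reflects Mup4 was not tested.

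Mup6 was the dimmest of the 8 in tumors. It was well above background in 4 of 8 tumors and in all 8 control livers. Its level was 5.95, 6.35 and 7.04 in tumors, against 9.79, 11.20 and 12.22 in control livers. The ratio averaged -4.64 ± 1.01 (n = 8, 24.9-fold lower in HCC, adjusted p = 4.86e-06), from -5.73 on array 6 to -2.75 on array 7. The groups did not overlap, but the tumor signal lay near the floor. The ratio was -4.84 with no background subtraction, -5.29 at an offset of 16 and -7.09 with the scanner's processed signals, which differ in both background handling and normalization.

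Mup2 and Mup19, near copies outside the 8 genes, were lower in HCC as well. Mup2 averaged 14.01 ± 0.35 in tumors and 18.06 ± 0.18 in control livers (SD, n = 8 each), a ratio of -4.05 ± 0.43 (16.6-fold lower in HCC). Mup19 averaged 14.72 ± 0.26 in tumors and 18.23 ± 0.11 in control livers, a ratio of -3.51 ± 0.28 (11.4-fold lower in HCC). The 12 Mup probes were thus below 0 on all 8 arrays, with means between -6.65 and -1.43. No Mup spot was saturated: the highest control signal of a Mup probe was 332075 before background subtraction, and the scanner's saturation value in that channel was 779016.

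**Figure D2:**
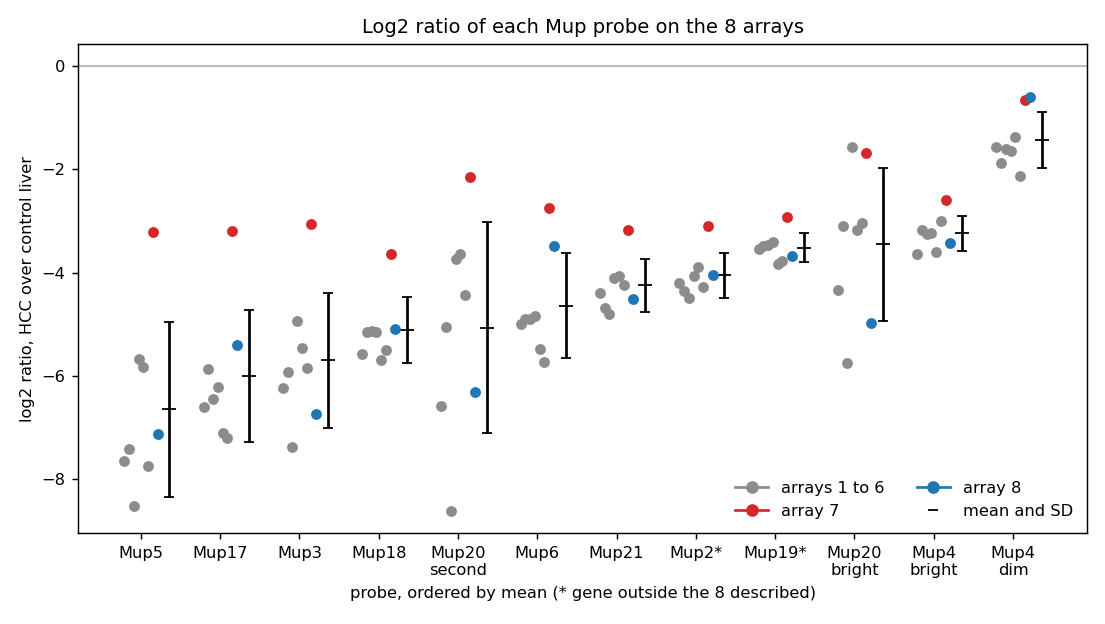
Log2 ratio of HCC over control liver for each of the 12 Mup probes, 1 point per array, ordered by the mean, with the mean and SD at the right of each group. All points lie below 0, and array 7 (red) is the least negative on 10 of the 12 probes.

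Whether the probes that represent the genes had unequal ratios was tested within arrays, as the difference of each gene's ratio from that of Mup3. The test was an exact two-sided sign-flip permutation test over 8 arrays, adjusted by Benjamini-Hochberg over the 7 differences. The smallest p it can give is 0.00781. Mup5 was lower than Mup3 by a further -0.95 (95% interval -1.48 to -0.42, on 8 of 8 arrays, adjusted exact p = 0.0182). Mup4 was less negative than Mup3 by 2.46 (1.52 to 3.39, on 8 of 8 arrays, adjusted exact p = 0.0182), and Mup20 by 2.25 (1.66 to 2.83, on 8 of 8 arrays, adjusted exact p = 0.0182). All 3 rest on the brighter probe of each gene. With the other probe, Mup20 differed from Mup3 by 0.63 (above 0 on 6 of 8 arrays, adjusted exact p = 0.164), which did not pass, and Mup4 by 4.27 (on 8 of 8 arrays, adjusted exact p = 0.0182). Mup21 was less negative by 1.45 (0.75 to 2.15, on 7 of 8 arrays, adjusted exact p = 0.0219). Mup6 was less negative by 1.06 (0.04 to 2.08, on 7 of 8 arrays, adjusted exact p = 0.0219), a call that was lost at a normexp offset of 16 (0.44, adjusted exact p = 0.414) and turned with the processed signals (-1.24). Mup17 differed from Mup3 by -0.31 (-1.22 to 0.60, adjusted exact p = 0.414) and Mup18 by 0.58 (-0.24 to 1.39, adjusted exact p = 0.182), and neither passed. The 2 probes of 1 gene also differed, by 1.81 ± 0.59 for Mup4 and -1.61 ± 0.86 for Mup20, in the same direction on all 8 arrays. The test therefore cannot tell a difference between genes from a difference between probes. How far signal of near copies enters these differences was not tested.

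Array 7 stood apart for the Mup genes. The mean ratio of the 8 genes was -2.91 there and between -5.78 and -4.47 on the other 7 arrays. Both channels moved: the mean tumor level was 12.99 on array 7 against 10.74 to 12.03 elsewhere, and the mean control level was 15.90 against 16.24 to 16.79 elsewhere. Array 7 had the least negative ratio for 7 of 8 genes (Mup20 was least negative on array 4), the highest tumor level for 7 of 8 (Mup21 was highest on array 5) and the lowest control level for 7 of 8 (Mup20 was lowest on array 4). Of 14 other gene lists, array 7 lay outside the range of the other 7 arrays in mean ratio for 1, in tumor level for 1 and in control level for 3. The mean ratio of 31 other male-biased genes was -1.80 on array 7 and -2.41 to -1.80 elsewhere. That of 26 plasma proteins of hepatocytes was -1.15 on array 7, the most negative of the 8, and -0.995 to -0.37 elsewhere. Bile duct markers had a mean control level of 7.22 on array 7 and 7.39 to 7.64 elsewhere, and a mean ratio of 0.54 there and 0.36 to 2.06 elsewhere. Without array 7 the mean ratios of the 8 genes stayed called and were more negative, from -7.14 for Mup5 to -3.33 for Mup4.

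The 8 genes split into sets once array 7 was left out. Over all 8 arrays the ratios of the 28 pairs of genes correlated with r between 0.13 and 0.96 (median 0.69), and without array 7 with r between -0.58 and 0.97 (median -0.03). Among Mup3, Mup5, Mup20 and Mup21, which lie side by side at the end of the cluster, all 6 pairs stayed between 0.71 and 0.97 without array 7. Among Mup6, Mup17 and Mup18 the 3 pairs stayed between 0.66 and 0.91, though Mup6 was well above background in only 4 of 8 tumors. The 12 pairs between these sets were all below 0, from -0.58 to -0.03, and Mup4 gave -0.28 to 0.46 with the other genes.

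**Figure D3:**
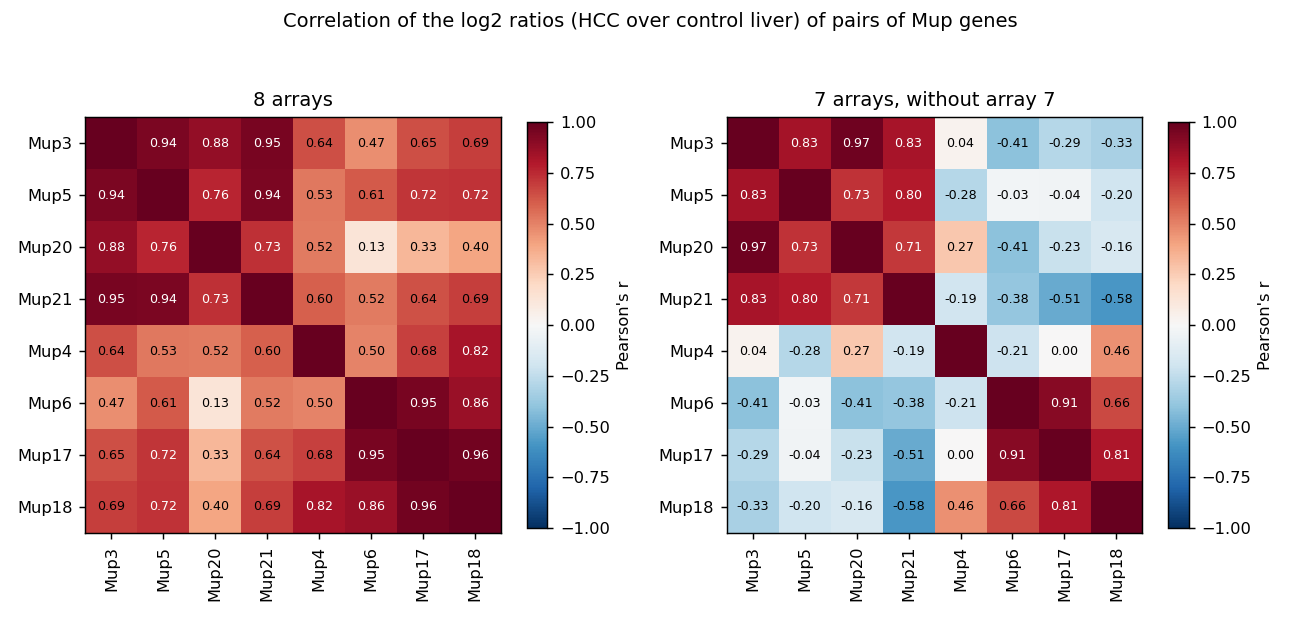
Pearson's r between the log2 ratios of pairs of Mup genes over 8 arrays (left) and over the 7 arrays without array 7 (right). On the right, Mup3, Mup5, Mup20 and Mup21 form 1 block of positive values and Mup6, Mup17 and Mup18 another.

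The split was also present in the tumor channel alone, without array 7, for the first set (0.72 to 0.96). The 3 pairs of Mup6, Mup17 and Mup18 ran from 0.06 to 0.78 there, with Mup6 at 0.39 to Mup17 and 0.06 to Mup18. The SD of Mup6 over 8 arrays was 0.39 in the tumor channel and 0.74 in the control channel. Without array 7 the ratio of the dim Mup4 probe gave r = 0.84 with Mup6, 0.59 with Mup17 and 0.23 with Mup18. In the control channel without array 7 the pairs between sets were not below 0 as a rule, with 11 of 12 above 0. The sets were chosen after these values were seen, the points of a pair share both RNAs, array and dyes, and 7 or 8 points are few, so this is a description with no test. On array 3, Mup3, Mup5, Mup20 and Mup21 each had their most negative ratio, while Mup6, Mup17 and Mup18 did not. Without array 7, Mup2 was closer to the first set, with r of 0.58 to Mup3, 0.86 to Mup5, 0.78 to Mup21 and 0.40 to the brighter Mup20 probe. To the other set it had 0.14 with Mup6, -0.05 with Mup17 and -0.39 with Mup18. Mup19 was closer to the other set, with 0.65 to Mup18, 0.48 to Mup17 and 0.26 to Mup6. To the first set it had -0.10 with Mup3, -0.15 with Mup5, -0.44 with Mup21 and 0.02 with the brighter Mup20 probe. The promoter windows did not sort the genes in the same way, since Mup2 and Mup17 were 99.2% identical.

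The next list mixes genes of hormone signalling, targets of growth hormone and liver regulators. Their part in the Mup ratios was not tested. Of 38 tested genes of growth hormone, androgen and glucocorticoid signalling and Mup regulation, 7 (18.4%) were lower, against 5.94% of all genes, 0 were higher, against 9.54%, and the median log2 ratio was -0.35. The growth hormone target Igf1, a circulating growth factor, averaged 11.79 ± 1.71 in tumors and 15.01 ± 0.12 in control livers (SD, n = 8 each), a ratio of -3.22 ± 1.78 (9.33-fold lower in HCC, adjusted p = 0.000879). Igfals, which carries Igf1 in blood and is also a growth hormone target, had a ratio of -1.89 ± 0.50. The growth hormone receptor Ghr had -1.34 ± 0.81 (2.53-fold lower in HCC, below 0 on 8 of 8 arrays, adjusted p = 0.00165), and Bcl6, a repressor that growth hormone controls in male liver, had -1.31 ± 0.59. Nr1i3, a nuclear receptor of xenobiotic metabolism, fell by 2.41 ± 1.05 on the log2 scale, the oestrogen receptor Esr1 by 1.67 ± 0.53 and the liver factor Foxa1 by 1.43 ± 1.18. The call for Foxa1 was lost on row 1 of the slide alone (-1.42, adjusted p = 0.115), and that for Esr1 when all its probes were averaged (-0.89).

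Stat5b, named after its value was seen, did not reach the ratio a call needs. It had -0.56 ± 0.32 (adjusted p = 0.00269) and was below 0 on 8 of 8 arrays. Other growth hormone signalling genes of the list, also named after their values were seen, were not called either. Jak2 had 0.32 ± 0.32, Stat5a -0.50 ± 0.39, Cish -0.14 ± 0.64 and Socs2 0.38 ± 1.26. With the processed signals 11 genes of this list were lower, against 7 in the main setting. Calls of lower over all genes also rose with these signals, to 1795 from 850.

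Other genes that are higher in male than in female mouse liver were lower in HCC too. Of 31 tested, 22 (71%) were lower, against 5.94% of all genes, 2 (6.45%) were higher, against 9.54%, and the median was -1.95. This list too was chosen with earlier results of these data known, so its counts are a description. Sult2a8, a liver sulfotransferase, had a ratio of -6.35 ± 0.77 (81.7-fold lower in HCC, adjusted p = 1.87e-07). Slco1a1, an organic anion transporter, had -5.57 ± 0.87, but it was well above background in only 1 tumor, and the ratio was -6.32 at an offset of 16 and -8.52 with the processed signals, so its size is not settled. Susd4, a complement regulator, had -4.41 ± 0.55, and the glucuronosyltransferase Ugt2b1 had -4.29 ± 1.06. The 2 genes higher in HCC, named after their values were seen, were Rdh9, a retinol dehydrogenase (1.09 ± 0.99), and the hormone Fgf21 (1.81 ± 2.13). The Mup median of -4.88 lay further from 0 than that of this list, and the difference between the lists was not tested.

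Genes that are higher in female liver were mixed: of 35 tested, 9 (25.7%) were higher, against 9.54% of all genes, 4 (11.4%) were lower, against 5.94%, and the median was 0.24. Lpl, the lipase that clears triglyceride from blood lipoproteins, rose by 3.75 ± 0.62 on the log2 scale. Prom1, a membrane protein of progenitor and bile duct cells, rose by 3.56 ± 0.74, and Cyp2a4, a steroid hydroxylase of female liver, by 3.14 ± 0.82. Cyp4a10, a fatty acid hydroxylase, had -2.87 ± 3.53 (adjusted p = 0.0435), and the call was lost without any 1 of arrays 1, 2, 3, 7 or 8.

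Plasma proteins made by hepatocytes had a median nearer 0 than the Mup genes, a difference between lists that was not tested. Of 26 tested, 7 (26.9%) were lower, against 5.94% of all genes, 0 were higher, against 9.54%, and the median was -0.62. Serpina1c and Serpina1a, which encode the protease inhibitor alpha-1-antitrypsin, had ratios of -1.87 ± 0.48 and -1.79 ± 0.47, Fetub, a protease inhibitor, had -1.67 ± 0.63, and the apolipoprotein Apoc3 had -1.36 ± 0.33. Albumin (Alb), named after its value was seen as the marker of hepatocytes, averaged 17.16 ± 0.62 in tumors and 17.45 ± 0.44 in control livers (adjusted p = 0.46). The mean level of the list was 16.10 to 16.53 in the 8 tumor channels and 16.86 to 17.24 in the 8 control channels.

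Other lipocalins and carriers of small hydrophobic molecules were, as a list, near the median of all genes. Of 15 tested, 1 (6.67%) was lower, against 5.94% of all genes, 3 (20%) were higher, against 9.54%, and the median was 0.0043. Fabp1, the fatty acid binding protein of hepatocytes, had -2.86 ± 1.505. Lcn2, an iron-scavenging lipocalin of inflammation, rose by 2.10 ± 0.29 on the log2 scale, and Ptgds, a lipocalin that makes prostaglandin, by 1.37 ± 0.65. Of 21 tested genes on either side of the cluster on chromosome 4, 4 (19%) were lower, against 5.94% of all genes, 0 were higher, against 9.54%, and the median was -0.17. The 4 were Hdhd3 (-1.94 ± 0.61), the peroxisomal protein Hsdl2 (-1.64 ± 0.996), the haem synthesis enzyme Alad (-1.38 ± 0.35) and the copper transporter Slc31a1 (-1.10 ± 0.23).

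**Figure D4:**
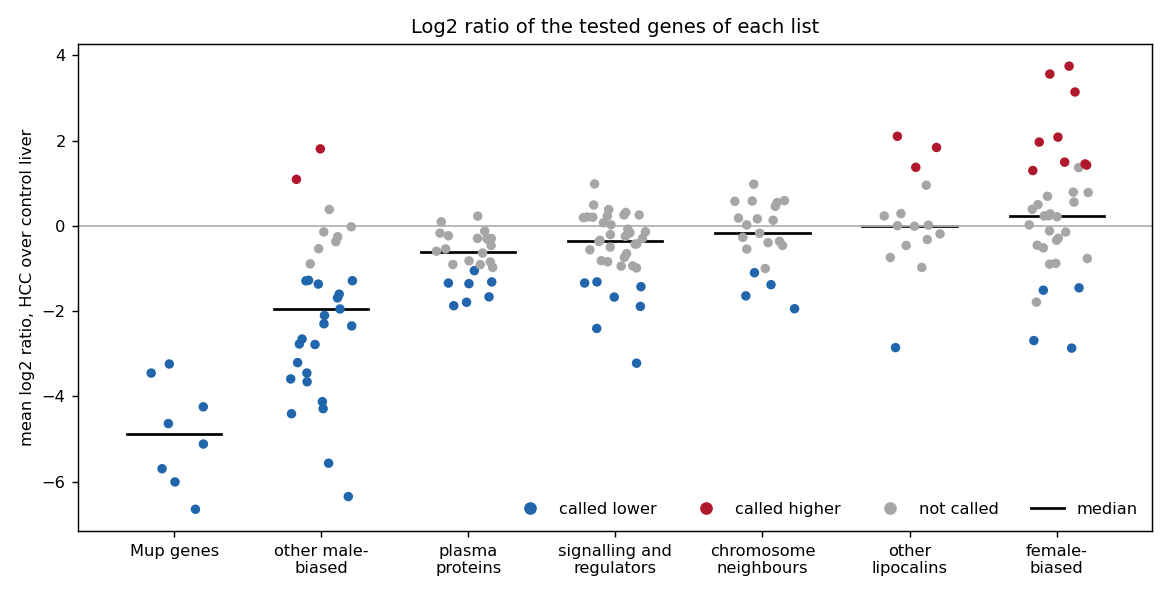
Mean log2 ratio of HCC over control liver for each tested gene of 7 lists, with the median of each list as a black line and genes called lower in blue and higher in red. The Mup median is -4.88, and the medians of the other lists lie between -1.95 and 0.24.

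The genes whose ratio followed the mean Mup ratio most closely over the 8 arrays, among 13874 named genes, were Car5a (r = 0.974), AW011738 (0.971), Aqp5 (0.968), Ugt2b1 (0.957) and Hr (0.953). Without array 7 these correlations were 0.850, 0.854, 0.842, 0.902 and 0.773. Only Car5a, the mitochondrial carbonic anhydrase of liver (-2.74 ± 0.92), and Ugt2b1 were themselves called lower in HCC. In the tumor channel alone the closest were Ugt2b1 (0.974), Cpt2 (0.937), Qdpr (0.929), N4bp2l1 (0.926) and Car5a (0.922). Cpt2, which imports fatty acids into mitochondria for oxidation, had a ratio of -1.29 ± 0.71, not called on row 2 of the slide alone (-1.03, adjusted p = 0.0751), and Qdpr, which regenerates tetrahydrobiopterin, had -1.26 ± 0.41. These are the extremes of many correlations over 8 points that share RNA and array, so they are descriptions.

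Markers of other cells also differed between the channels. All 7 tested Kupffer cell markers and 4 of 8 endothelial markers were lower in HCC, against 5.94% of all genes. In HCC 5 of 8 markers of recruited macrophages, 6 of 9 of stellate cells and fibroblasts and 3 of 7 of bile duct were higher, against 9.54%. Alternatives were run only for the called markers with the largest ratios, up to 4 of each list. Of those, the calls of Marco (limma adjusted p = 0.136), Col3a1 (0.0725), Lum (0.113), Sox9 (0.337) and Fcgr2b (0.0847) were lost on row 2 of the slide alone. That of Sox9 was also lost with the processed signals (0.102), and that of Fcgr2b also without array 8 (log2 ratio -0.83). Of 6 lymphocyte markers, 0 were called. Their part in the Mup ratios was not tested. Array 8 had high levels of skeletal muscle genes: the mean of 9 tested was 9.05 in its tumor and 11.82 in its control, against 7.49 to 7.75 in the other tumors and 7.40 to 7.56 in the other controls. The mean Mup ratio there was -5.10, inside the range of the other arrays. Without array 8 the means of the 8 Mup genes were between -6.58 and -3.22.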

How the data were processed

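RNA of 8 tumors and of control liver was measured on 8 Agilent 2-colour arrays. Per the file headers, the deposited values are spot intensity (median signal and local median background) from the scanner and a log10 ratio of red over green, which was not tested. Per the submitters' processing notes the tool was Agilent Feature Extraction 10.9, and 10.9.1.1 per the file headers. The median signals were corrected by normexp (offset 50) and normalized by loess within arrays, with control spots at weight 0 (limma 3.58.1 and data.table version 1.17.8 in R 4.3.3). Levels were taken per channel after loess and Aquantile. Probes were named through RefSeq accessions. Tests were limited to the 29290 probes flagged well above background, in either channel, on 4 arrays or more, and the brightest tested probe represented each of 14311 genes. Mean log2 ratios of tumor (Cy5) over control (Cy3) were tested against 0 with limma, with Benjamini-Hochberg adjustment over the 14311 genes. Calls needed an adjusted p below 0.05 and a log2 ratio of 1 or more in either direction.

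On simulated data of 14311 genes, the procedure called 66 of 66 genes given a log2 shift of -5, 66 of 67 given -3 and 61 of 67 given -1.5, and made 3 false calls. The noise was independent and normal with each gene's own SD, so dye effects, shared control RNA and floor signals were not covered. Few unshifted genes could reach the ratio a call needs, so the 3 false calls say little about errors in the real data. The members and gene lists were chosen with earlier results of these data known. Genes named are all Mup probes, every called gene of the signalling list, up to 4 called genes with the largest ratios of each other list, and the 5 genes most like the Mup genes in ratio and in tumor level. Lists of other cells' markers are given as counts, with names only for calls that an alternative lost. Alternatives were run for up to 4 called markers of each such list, and the other calls were not checked. Some genes that these rules name are not reported here. Promoter windows were aligned with Biopython 1.88. Between 38.5% and 51.9% of tumor probes and 45.1% and 54.2% of control probes were well above background, and the 8 arrays limit the precision.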

Additional observations from a re-analysis of the deposited data

Results flagged for a closer look

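The 40 groups of 8 values tested were the ratio and both channel levels of each Mup probe and the mean ratios of gene lists. The lists were the 8 Mup genes, the other male-biased genes, the plasma proteins and the signalling list. In 8 of the 40 groups 1 array stood farther from the nearest other than Dixon's 95% critical value allows. Chance gives such a gap in about 1 in 20 groups. The groups share RNA and near-identical copies, so they are not independent. All 8 were on array 7, and each was at the top of its group.

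The mean ratio of the 8 Mup genes was -2.91 on array 7, and the next was -4.47. Mup17 had a ratio of -3.20 there, with the next at -5.40, and a tumor level of 13.52, with the next at 11.58. Mup18 had a ratio of -3.65, with the next at -5.10, and a tumor level of 13.39, with the next at 12.22. Mup21 had a ratio of -3.17, with the next at -4.07. Outside the 8 genes, Mup2 had -3.09, with the next at -3.89, and Mup19 had -2.93, with the next at -3.41. No cause was tested.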

How the results depend on the processing

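All 8 Mup genes stayed called lower in 24 of 24 alternative settings, with the largest adjusted p 0.0141 (limma). Their mean log2 ratios ran from -7.32 to -5.98 for Mup5, -6.58 to -5.73 for Mup17, -6.12 to -5.27 for Mup3, -5.37 to -4.99 for Mup18, -7.09 to -4.36 for Mup6, -4.496 to -4.00 for Mup21, -4.26 to -3.13 for Mup20 and -3.33 to -2.33 for Mup4. These include the median control level of all arrays in place of each array's own control, chosen after seeing the data, as were the correlations without array 7.

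The difference of Mup6 from Mup3 was 0.88 with no background subtraction (adjusted exact p = 0.109), 0.44 at an offset of 16 and -1.24 with the processed signals (adjusted exact p = 0.0137). Its cause was not tested. With the other probe of Mup20, chosen after seeing the data, its difference from Mup3 was 0.63 (adjusted exact p = 0.164). Without arrays 7 and 8, over 6 arrays, the differences from Mup3 were 2.65 for Mup4 and -1.18 for Mup5 (adjusted exact p = 0.0547 each). They were 2.47 for Mup20 and 1.58 for Mup21 (adjusted exact p = 0.0547 each) and 0.82 for Mup6 (0.0875). With 6 arrays the smallest p this sign-flip test can give is larger than the 0.00781 of 8 arrays. These p-values thus do not show whether the differences weakened. With the processed signals 1795 genes were called lower, 11 of them in the signalling list, and on row 2 of the slide alone 848 were called higher. Leaving out each array in turn, 836 to 902 genes were called lower and 1292 to 1532 higher.

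Every ratio pairs the tumor and the control of 1 array, so all tests were within arrays.

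The 2-colour design with no dye swap, the unknown origin of the control RNA and the near-identical copies limit the sizes. Signal limits Mup6 and the dim Mup4 probe in tumors.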
